A study of Schizosaccharomyces pombe with 4 samples.

Results

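The genes described here lie near the 2 ends of chromosome I of the fission yeast Schizosaccharomyces pombe. They were chosen by position: the transcript lay wholly within the first or the last 100000 bases of the 5579133-base chromosome, and the identifier was of the style used for protein-coding genes (SPAC or SPAP). Of the 7092 genes in the files 65 met this rule, 34 at the left end and 31 at the right. In all 5 genes of these regions were left out by the rule (SPAC977.05c, SPAC977.16c, SPAC977.17, SPAC869.09 and SPAC186.09). RNA was sequenced from 2 libraries of a strain labelled loz1 delta, a name for deletion of the gene of the zinc-responsive repressor Loz1, and from 2 libraries of a strain labelled wild type. Both strains were grown in a zinc-limited minimal medium (EMM) to which zinc had been added back, at 100 mM in the labels' unit, which was not checked. Whether the libraries of a group stem from separate cultures is not stated. The p-values therefore reflect the spread among these libraries alone, and that spread may be technical. The labels name no other allele in either strain.

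Subtelomeres, the regions next to the protective telomere repeats, are known in fission yeast as places of gene silencing. Shelterin proteins bind the telomere, and the histone methyltransferase Clr4, the chromodomain protein Swi6 and histone deacetylases keep the adjoining chromatin compact. Many of the genes there encode transporters, cell surface proteins and enzymes of uncommon nutrients, and several belong to families copied between chromosome ends.

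Depth was estimated from the bounds that accompany each value, at 16600000 to 18800000 fragments per library. Across the 6315 tested genes, which are not independent replicates, Pearson's r was 0.991 for the labelled deletion pair, 0.968 for the wild-type pair and 0.911 to 0.925 for pairs of unlike label. The targeted gene went against its label: wild type held 6.87 and 5.81 FPKM of loz1 (SPAC25B8.19c) and the labelled deletion libraries 56.4 and 56.0 FPKM (2.97 ± 0.14 on the log2 scale with its SE, adjusted p = 0.00112). A single value per transcript does not show whether its deleted part was read. Each direction below follows the labels. Markers of the M mating type also separated the groups, with 7 of 7 listed as such called lower in the labelled deletion libraries. The defining M gene mat1-Mc (SPBC23G7.09) was at 0 and 0.137 FPKM there, against 159.2 and 257.3 FPKM in wild type. Of the P cell markers map1, map2 and map3, the latter pair were called higher. The third, map1, was not called and lay lower by a log2 difference of -0.28 ± 0.16 (SE, adjusted p = 0.274). The gene mam3 had been listed with them but is an M cell gene. It was not called and lay lower by -1.60 ± 0.48 (adjusted p = 0.0836) without overlap of the groups. The part of this difference between the strains in the results below was not tested.

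Transcripts of chromosome I subtelomeric genes were more often higher than lower in the labelled deletion libraries. FPKM, a fragment count scaled to transcript length and library size, was compared on the log2(FPKM + 1) scale with limma for all genes that averaged at least 1 FPKM. Of the 65 genes 52 were tested, and 26 were called higher and 6 lower at a Benjamini-Hochberg adjusted p under 0.05 over all 6315 genes. Over all tested genes 11.9% were called higher and 4.37% lower. The values of the groups did not overlap in most of the 52 genes, with the labelled deletion libraries above in 36 and below in 9; over all tested genes these shares were 44.7% and 21.6%. The median difference was 0.81 (log2) for the 52 genes and 0.13 for all tested genes, a shift that every difference given here includes. After median-ratio rescaling of the libraries 23 were higher and 7 lower and their median was 0.69. Without labelled deletion replicate 1, and likewise without replicate 2, 14 were higher and 1 was lower. Without wild-type replicate 1 the counts were 34 and 8, and without wild-type replicate 2 they were 29 and 13. Over all tested genes the higher calls then numbered 80 and 73 without labelled deletion replicates 1 and 2, and 2115 and 1593 without wild-type replicates 1 and 2. The labelled deletion libraries differed from each other by a median of 0.092 (log2) and the wild-type libraries by 0.241.

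Of the 52 tested genes, 44 averaged at least 1 FPKM in both groups, and 20 of these were called higher and 5 lower. Another 6 passed only through the labelled deletion libraries and had to be higher there (ftm2, SPAC977.06, pfl6, SPAPJ695.02, SPAPJ695.01c and ftm3). The other two, str3 and SPAC186.02c, passed only through wild type. The 13 genes that were not tested are described by their levels.

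Most of the higher calls lay near the chromosome ends. Of 36 genes within 50 kb of an end 27 were tested, and 21 were higher and 1 was lower, with a median difference of 2.51. Of 29 genes at 50 to 100 kb from an end 25 were tested, with 5 higher and 5 lower and a median of -0.04. Among the outer genes the filter required ftm2, SPAC977.06, pfl6 and ftm3 to be higher and SPAC186.02c to be lower. Among the inner genes it required SPAPJ695.02 and SPAPJ695.01c to be higher and str3 to be lower. In the summed FPKM of the 36 outer genes the groups did not overlap, with 858.6 and 858.8 in the labelled deletion libraries and 149.2 and 137.8 in wild type. For the 29 inner genes the sums were 3289.7 and 3215.1 against 3657.0 and 3413.2, where the labelled deletion libraries lay below wild type. That direction turned when each sum was scaled to 1000000 of the library's summed FPKM, with 3136.2 and 3153.3 against 3076.8 and 2592.2. For the outer genes the scaled sums were 818.6 and 842.3 against 125.5 and 104.6. A single gene, SPAC922.04, made up most of the unscaled inner sum in every library, at 1922.6 and 1852.7 against 1971.9 and 2502.9 FPKM. No test was made between the outer and the inner genes. Without labelled deletion replicate 1 or 2, 11 of the outer genes were called higher and none lower, and 3 of the inner genes were higher and 1 was lower. Without wild-type replicate 1 the inner genes gave 11 higher, and without wild-type replicate 2 they gave 12 lower.

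**Figure D1:**
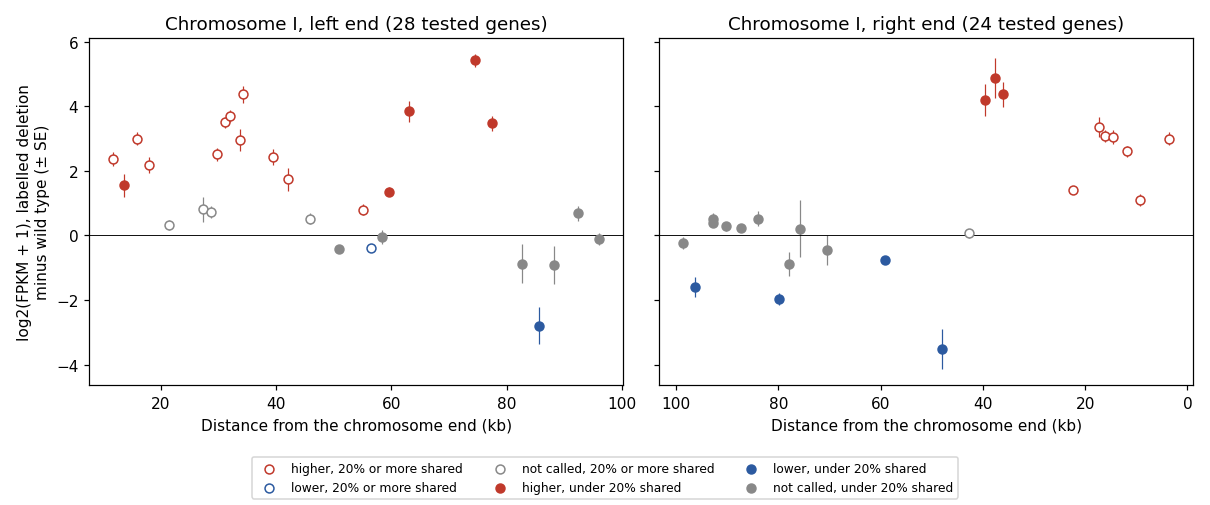
Difference between the groups for the 52 tested genes against distance from the chromosome end in kb, left and right end apart, on the log2(FPKM + 1) scale with the standard error from limma. Red points were called higher, blue lower and grey neither; open points share at least 20% of their sequence with other loci. The red points lie mostly within 50 kb of an end, and blue points lie at 48.0 kb or farther. The value of SPAPJ695.01c, listed at 0 in wild type, depends on the pseudocount.

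**Figure D2:**
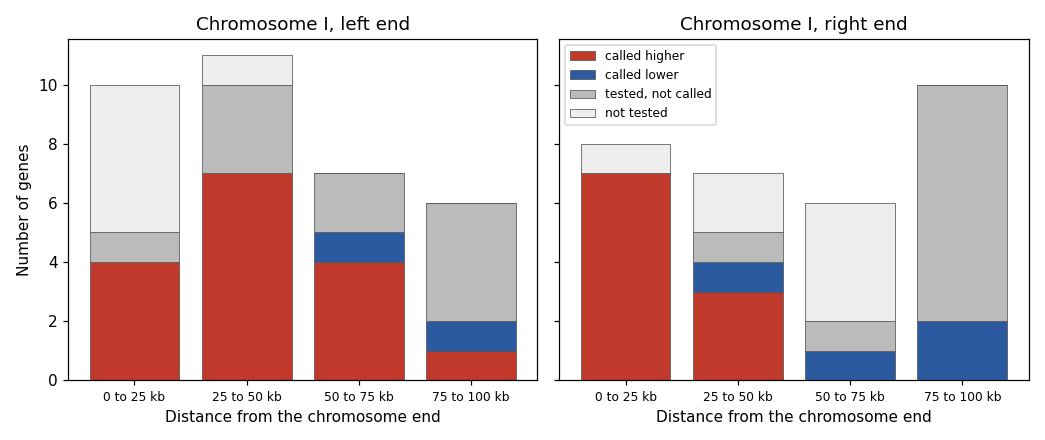
Number of genes in each 25-kb window from the chromosome end, split into called higher, called lower, tested but not called, and not tested. At the left end 4, 7, 4 and 1 genes were called higher from the outermost window inwards, and at the right end 7, 3, 0 and 0.

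At the left end the outermost genes were barely detected. The first gene, tlh1 (SPAC212.11, I, 1 to 5662, minus strand), encodes a RecQ type DNA helicase and is cut off by the end of the assembly. Its level was 0.62 and 0.529 FPKM in the labelled deletion libraries, against 0.423 and 0.155 FPKM in wild type. The groups did not overlap, but tlh1 was below the level needed for a test, and 98.2% of it is shared with other loci, chiefly tlh2 on chromosome II. Next to it, the pseudogene SPAC212.10 (I, 5726 to 6331) was at 0.136 and 0.318 against 0.0724 and 0.0719 FPKM and was not tested. The pseudogene SPAC212.09c was at 0.899 and 0.82 against 0.0986 and 0.13 FPKM.

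For each gene below, a rise or fall is given from the 2 wild-type libraries to the 2 labelled deletion libraries, with the log2 difference, its SE and the adjusted p. Where 2 pairs of values are set against each other, the labelled deletion libraries come first. A first run of 4 neighbouring genes (I, 11784 to 18974) was higher. SPAC212.12, annotated as encoding a GPI-anchored protein, rose from 2.71 and 2.52 to 24.0 and 32.1 FPKM (2.99 ± 0.20, adjusted p = 0.00288). SPAC212.08c, also annotated as GPI anchored, rose from 1.13 and 1.32 to 9.9 and 10.9 FPKM (2.36 ± 0.21, adjusted p = 0.00476). The DNA helicase-like gene SPAC212.06c rose from 1.71 and 1.0 to 9.44 and 9.44 FPKM (2.17 ± 0.25, adjusted p = 0.00971). All 3 had higher values in each labelled deletion library than in either wild-type library. The pseudogene SPAC212.07c rose from 1.43 and 0.583 to 3.78 and 5.9 FPKM (1.55 ± 0.35, adjusted p = 0.0466), and rescaling ended that call. Leaving out labelled deletion replicate 1 or 2 ended the calls of SPAC212.07c, SPAC212.08c and SPAC212.06c.

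After this run came uncharacterized genes at 21 to 29 kb that were not called. SPAC212.04c averaged 12.1 ± 0.158 against 9.51 ± 1.0 FPKM (SD, adjusted p = 0.217). SPAC212.01c was at 12.2 and 12.6 against 8.04 and 6.21 FPKM (adjusted p = 0.058), and SPAC212.02 was at 3.1 and 5.81 against 2.73 and 1.43 FPKM (adjusted p = 0.194). In each the labelled deletion libraries lay above wild type, but the adjusted p was not under 0.05. SPAC212.03, at 1.41 and 0.857 against 0.6 and 0.224 FPKM, and the short pseudogene SPAC212.05c were not tested. SPAC212.05c was listed at 0 in wild type, against 3.05 and 2.86 FPKM, which rest on an estimated 1 fragment in each labelled deletion library. All of its sequence occurs elsewhere too.

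A second run of 7 tested genes (I, 29764 to 43307) was higher throughout. Each of them shares 68.8 to 97.3% of its sequence with other loci. By the filter, ftm2, SPAC977.06 and pfl6 had to be higher. The transmembrane helix protein gene ftm1 (SPAC977.01) rose from 6.8 and 9.79 to 49.8 and 52.9 FPKM (2.51 ± 0.19, adjusted p = 0.00349). The uncharacterized SPAC977.18 rose from 1.9 and 1.99 to 31.0 and 33.8 FPKM (3.50 ± 0.16, adjusted p = 0.0011). The related gene ftm2 (SPAC977.02) rose from 0.823 and 0.933 to 22.1 and 24.5 FPKM (3.69 ± 0.19, adjusted p = 0.00138). The next gene along, annotated as a methyltransferase, showed the same order of libraries. SPAC977.03 rose from 6.6 and 3.14 to 48.3 and 37.8 FPKM (2.96 ± 0.33, adjusted p = 0.00899).

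The uncharacterized SPAC977.04 (I, 34298 to 34978) also rose in this run. It went from 2.91 and 1.46 to 67.0 and 59.4 FPKM (4.37 ± 0.26, adjusted p = 0.0019). SPAC977.06 rose from 0.518 and 0.825 to 7.46 and 8.45 FPKM (2.43 ± 0.25, adjusted p = 0.00721). The run closed with pfl6 (SPAC977.07c), one of the pfl genes for cell surface glycoproteins, several of which act in flocculation, the clumping of cells. It rose from 0 and 0.0544 to 1.88 and 3.11 FPKM (1.74 ± 0.35, adjusted p = 0.0372), and rescaling ended that call. Of the run, SPAC977.03, SPAC977.06 and pfl6 lost their calls when a labelled deletion library was left out. SPAC977.18 is overlapped over 24.5% of its transcript by ftm2 on the other strand, and without a stated strand setting their reads cannot be told apart there.

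The dehydrogenase gene ayr2 was next, at 1.61 and 1.76 against 0.093 and 0.369 FPKM, and was not tested. The phospholipase gene plb4 (SPAC977.09c), at 18.8 and 19.4 against 14.8 and 11.6 FPKM, was not called (adjusted p = 0.0979).

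**Figure D3:**
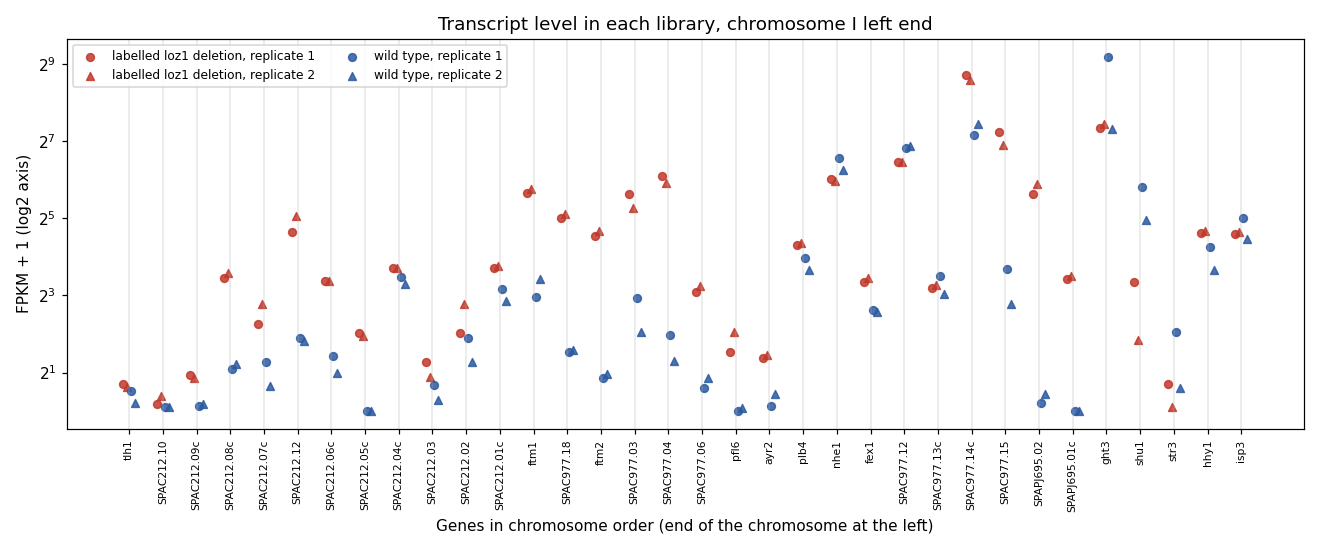
FPKM + 1 on a log2 axis in each of the 4 libraries for the 34 genes of the left end in chromosome order, with the chromosome end at the left; circles are replicate 1 and triangles replicate 2. The labelled deletion libraries (red) stand above wild type (blue) at each gene from tlh1 to plb4 and again from SPAC977.14c to SPAPJ695.01c. They do so too at fex1 and hhy1. At ght3 a single wild-type library stands apart at 584.6 FPKM.

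Farther in at the left end, the changes called among genes of ion transport and nitrogen metabolism were under 2-fold. The sodium ion/proton antiporter gene nhe1 (SPAC977.10), which exports sodium, was at 63.4 and 61.9 against 93.6 and 75.6 FPKM and was not called (adjusted p = 0.0913). The fluoride export channel gene fex1 (SPAC977.11) averaged 9.62 ± 0.577 against 5.08 ± 0.142 FPKM (SD), a difference of 0.80 ± 0.17 (SE, adjusted p = 0.0426), and rescaling ended that call. The L-asparaginase gene SPAC977.12 fell from 112.4 and 116.4 to 87.6 and 87.8 FPKM (-0.38 ± 0.09, adjusted p = 0.0477). Other loci share 80.8% of the sequence of fex1 and 74.8% of that of SPAC977.12. The pseudogene SPAC977.13c was at 8.14 and 8.6 against 10.4 and 7.15 FPKM, and the groups overlapped. The calls of fex1 and SPAC977.12 were lost when a labelled deletion library was left out.

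A further run, of 4 genes between 59 and 78 kb (I, 59614 to 78066), rose with little or no shared sequence (0 to 16.2%). The aldo-keto reductase gene SPAC977.14c rose from 141.9 and 172.2 to 421.6 and 384.6 FPKM (1.36 ± 0.13, adjusted p = 0.00597). SPAC977.15, of the dienelactone hydrolase family, rose from 11.9 and 5.82 to 149.1 and 119.2 FPKM (3.84 ± 0.32, adjusted p = 0.0042). The uncharacterized SPAPJ695.02 (I, 74452 to 76721, minus strand) rose from 0.166 and 0.357 to 48.7 and 58.3 FPKM (5.43 ± 0.20, adjusted p = 0.000655), and passed the filter only through the labelled deletion libraries. Its wild-type values rest on an estimated 6 and 13 fragments, and those of the labelled deletion libraries on 1877 and 2402. SPAPJ695.01c beside it was at 9.7 and 10.4 FPKM against values listed as 0 in wild type, and was called higher (adjusted p = 0.00293). The calls of SPAC977.15, SPAPJ695.02 and SPAPJ695.01c stayed whichever library was left out, and that of SPAC977.14c did not.

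The innermost genes of the left end were not called higher. The gluconate:proton symporter gene ght3 (SPAC1F8.01) was at 161.9 and 172.6 against 584.6 and 159.7 FPKM, so that the wild-type libraries differed by more than the groups did (adjusted p = 0.35). The shu1 gene (SPAC1F8.02c), for a heme-binding protein of the cell surface that serves heme uptake, fell from 55.4 and 30.0 to 9.19 and 2.56 FPKM (-2.79 ± 0.57, adjusted p = 0.0375). Without labelled deletion replicate 2 that call was lost. The siderophore transporter gene str3 was at 0.622 and 0.0794 against 3.17 and 0.509 FPKM, and was not called (adjusted p = 0.319). The hydrolase gene hhy1, fully overlapped by another transcript, was at 23.5 and 24.5 against 18.0 and 11.6 FPKM. The isp3 gene, known for a protein of the spore surface, was at 23.3 and 24.0 against 30.9 and 21.2 FPKM. The first gene outside the limit, pfl8, was at 24.4 and 25.7 against 24.5 and 29.8 FPKM.

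At the right end the outer 40 kb was higher in every tested gene. A run of 10 tested genes reached from SPAC186.04c to SPAC750.07c (I, 5538480 to 5575564). The outermost gene, SPAC750.08c (I, 5578447 to 5579133), annotated as a malic enzyme, ends at the last base of the assembly. It was at 1.28 and 1.13 against 0 and 0.278 FPKM and was not tested, and all of its sequence occurs elsewhere too. SPAC750.07c (I, 5575193 to 5575564) rose from 2.71 and 2.52 to 24.3 and 32.1 FPKM (3.0 ± 0.20, adjusted p = 0.00267). These are nearly the values of SPAC212.12 at the left end, with which it shares all of its sequence.

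The first 120 coding bases, taken from the RefSeq sequence (assembly ASM294v3), show how alike such copies are. Capitals mark bases that differ from the first sequence of each set.
SPAC212.12 (left end, I:15855-15974, plus strand): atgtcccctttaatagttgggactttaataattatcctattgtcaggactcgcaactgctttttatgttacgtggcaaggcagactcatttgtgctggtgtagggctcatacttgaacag
SPAC750.07c (right end, I:5575445-5575564, minus strand): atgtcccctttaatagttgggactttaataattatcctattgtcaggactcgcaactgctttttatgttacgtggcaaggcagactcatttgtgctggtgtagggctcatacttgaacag
SPBCPT2R1.06c (II:4520272-4520391, minus strand): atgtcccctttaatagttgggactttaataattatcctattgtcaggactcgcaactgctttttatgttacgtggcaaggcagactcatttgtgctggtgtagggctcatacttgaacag
The methyltransferase genes of both ends differ at 2 of these bases, while the left copy and that of chromosome II do not differ in them.
SPAC977.03 (left end, I:33835-33954, plus strand): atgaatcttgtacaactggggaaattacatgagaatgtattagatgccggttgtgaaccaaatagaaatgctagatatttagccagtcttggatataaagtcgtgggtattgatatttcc
SPAC750.03c (right end, I:5562926-5563045, minus strand): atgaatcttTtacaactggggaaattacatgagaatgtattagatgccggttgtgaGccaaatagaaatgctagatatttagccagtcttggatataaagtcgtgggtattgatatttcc
SPBC1348.04 (II:12176-12295, plus strand): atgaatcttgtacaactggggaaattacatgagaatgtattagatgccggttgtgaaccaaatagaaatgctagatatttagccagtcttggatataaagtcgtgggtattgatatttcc

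The genes next to SPAC750.07c repeat, in reverse order, the block from SPAC212.01c to SPAC977.04 of the left end. The uncharacterized SPAC750.06c rose from 6.76 and 5.31 to 13.6 and 14.3 FPKM (1.09 ± 0.18, adjusted p = 0.0239). The transmembrane helix protein gene ftm4 (SPAC750.05c) rose from 6.51 and 9.16 to 51.5 and 52.5 FPKM (2.60 ± 0.18, adjusted p = 0.00288). It shares 69.0% of its sequence with ftm1, whose values were close to it in all 4 libraries. The ftm3 gene (SPAC750.04c) rose from 0.479 and 0.476 to 10.7 and 11.9 FPKM (3.06 ± 0.22, adjusted p = 0.00303), and all of its sequence lies in ftm2. The methyltransferase gene SPAC750.03c rose from 7.24 and 5.15 to 65.7 and 53.6 FPKM (3.08 ± 0.20, adjusted p = 0.00267).

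SPAC750.02c, annotated as a transporter, rose from 3.74 and 1.68 to 38.8 and 32.2 FPKM (3.35 ± 0.31, adjusted p = 0.00533). It shares 84.2% of its sequence with SPBPB2B2.16c on chromosome II and a smaller part with SPAC977.04. The aldo/keto reductase gene SPAC750.01, 20.2% shared, rose from 20.5 and 24.4 to 60.9 and 61.4 FPKM (1.41 ± 0.13, adjusted p = 0.00475). In all of these genes the groups did not overlap. Only SPAC750.06c and SPAC750.01 among them lost their calls when a labelled deletion library was left out.

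Large rises at the right end were found in 3 neighbours with no shared sequence. The gene gdt1 (SPAC186.05c, I, 5540032 to 5541502, minus strand), whose namesake in budding yeast encodes a cation transporter of the Golgi, rose from 1.72 and 9.29 to 155.5 and 150.9 FPKM (4.87 ± 0.62, adjusted p = 0.0124). SPAC186.06 (I, 5542290 to 5543031, plus strand), annotated as an isomerase, rose from 0.538 and 2.35 to 44.1 and 47.6 FPKM (4.37 ± 0.39, adjusted p = 0.00475). The uncharacterized SPAC186.04c (I, 5538480 to 5539516, minus strand) rose from 0.622 and 3.57 to 47.8 and 49.9 FPKM (4.20 ± 0.50, adjusted p = 0.0103). In all 3 wild-type replicate 2 lay above wild-type replicate 1, and both lay far below the labelled deletion libraries. The calls of gdt1 and SPAC186.04c, but not of SPAC186.06, were lost when a labelled deletion library was left out.

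The genes gdt1 and SPAC186.06 point away from each other, so the sequence between them lies before both. The 250 bases before each RefSeq gene start (ASM294v3) are given because these genes, together with SPAC977.15, had large changes without shared sequence. The window of SPAC186.06 ends at 5542031, and the bases from there to the start given above (5542290) were neither printed nor searched. Capitals mark GATC, the centre of the known Loz1 response element.
gdt1 (I:5541482-5541731, minus strand): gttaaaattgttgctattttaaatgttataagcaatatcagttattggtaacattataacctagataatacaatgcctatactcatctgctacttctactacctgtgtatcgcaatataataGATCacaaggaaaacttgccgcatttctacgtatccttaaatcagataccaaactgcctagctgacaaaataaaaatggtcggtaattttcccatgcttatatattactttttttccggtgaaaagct
SPAC186.06 (I:5541782-5542031, plus strand): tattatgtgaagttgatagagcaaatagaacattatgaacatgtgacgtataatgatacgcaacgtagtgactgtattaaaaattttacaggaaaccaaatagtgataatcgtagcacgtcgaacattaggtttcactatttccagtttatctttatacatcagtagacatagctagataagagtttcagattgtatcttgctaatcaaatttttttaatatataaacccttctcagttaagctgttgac
SPAC977.15 (I:62701-62950, plus strand): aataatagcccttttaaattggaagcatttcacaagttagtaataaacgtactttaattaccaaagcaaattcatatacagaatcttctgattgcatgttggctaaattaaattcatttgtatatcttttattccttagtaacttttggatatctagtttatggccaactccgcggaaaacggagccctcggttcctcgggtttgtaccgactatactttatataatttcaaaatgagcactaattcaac
Only the first holds a GATC, and it is not within the longer element. Searched on both strands as CG, any 2 bases, GATC, any 1 base and T in the 500 bases before the gene start, the element was present before 2 of 64 genes with a full window and before 2.33% of 5112 protein-coding genes. These were the pseudogene SPAC212.10 (CGTCGATCAT, 399 bases before the start) and hry1 (CGCAGATCAT, 433 bases before), neither of which was called. The same search found it before loz1 and zrt1 but not before adh4, other genes known to be repressed by Loz1, so a window without it says only that these letters are absent.

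**Figure D4:**
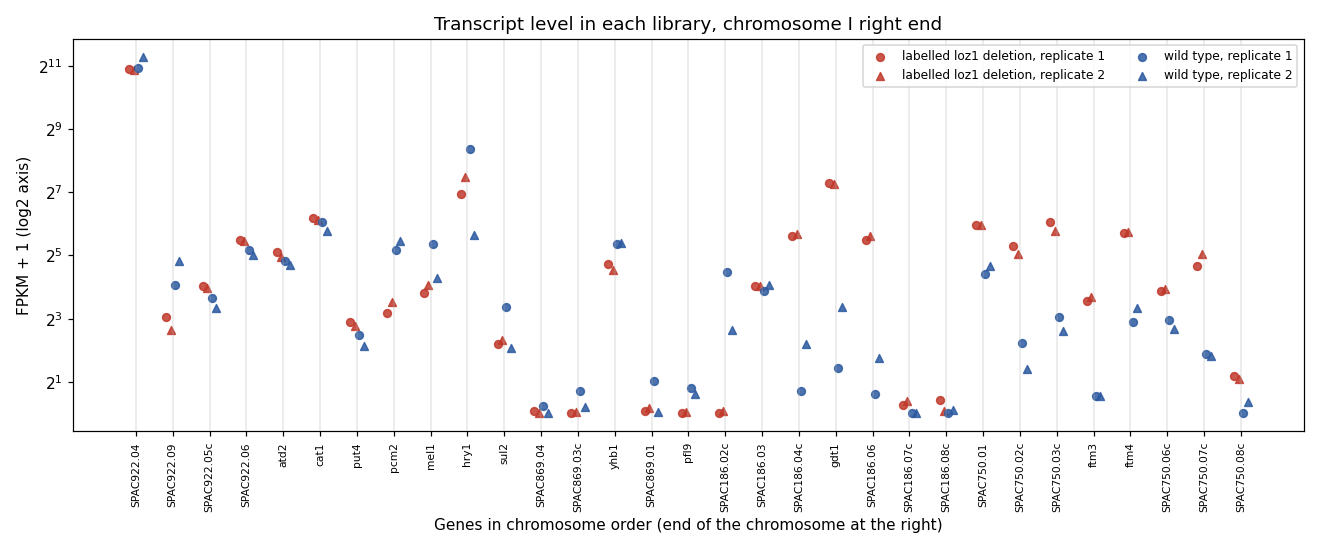
FPKM + 1 on a log2 axis in each of the 4 libraries for the 31 genes of the right end in chromosome order, with the chromosome end at the right; circles are replicate 1 and triangles replicate 2. From SPAC186.04c outwards the labelled deletion libraries (red) stand above wild type (blue) at each tested gene. SPAC869.04, SPAC869.03c, SPAC869.01, pfl9, SPAC186.07c and SPAC186.08c lie near the bottom of the axis in all libraries.

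Farther in than these neighbours, a gene was called lower that passed the filter only through wild type and so had to be lower. The hydroxyacid dehydrogenase gene SPAC186.02c (I, 5529851 to 5531144) fell from 21.1 and 5.23 to 0 and 0.0462 FPKM (-3.52 ± 0.63, adjusted p = 0.0284). Without either labelled deletion library that call was lost. Between it and SPAC186.04c, the L-asparaginase gene SPAC186.03 was at 15.4 and 15.4 against 13.7 and 15.7 FPKM (adjusted p = 0.757). The cell surface glycoprotein gene pfl9, at 0 and 0.0389 against 0.753 and 0.528 FPKM, and the amidase gene SPAC869.01, at 0.063 and 0.118 against 1.04 and 0.0333 FPKM, were not tested. Nor were the urea transporter gene SPAC869.03c and the formamidase-like gene SPAC869.04, which stayed at or below 0.63 FPKM. Likewise, the hydroxyacid dehydrogenase gene SPAC186.07c and the L-lactate dehydrogenase gene SPAC186.08c, which lie within the run of higher genes, were at or below 0.342 FPKM in every library.

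Of 16 right-end genes at 50 to 100 kb 12 were tested, with 3 called lower and none higher. Over all tested genes 4.37% were called lower and 11.9% higher. The groups did not overlap in 5 of the 12 with the labelled deletion libraries above, and in 5 with them below. Over all tested genes those shares were 44.7% and 21.6%. The gene yhb1 (SPAC869.02c), for a nitric oxide dioxygenase that removes nitric oxide, fell from 40.5 and 41.3 to 25.5 and 22.5 FPKM (-0.75 ± 0.12, adjusted p = 0.0215). The protein repair methyltransferase gene pcm2 (SPAC869.08) fell from 34.9 and 42.6 to 8.02 and 10.5 FPKM (-1.96 ± 0.19, adjusted p = 0.00574). The short uncharacterized SPAC922.09 fell from 15.7 and 27.3 to 7.38 and 5.18 FPKM (-1.60 ± 0.31, adjusted p = 0.0345). Its values rest on few fragments, an estimated 8 and 14 in wild type and 3 in labelled deletion replicate 2. That call was also lost without a filter and with a prior without trend. The calls of yhb1 and SPAC922.09 were lost without either labelled deletion library, and that of pcm2 without replicate 1 of them.

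The remaining right-end genes include amino acid and sulfate transporter genes and were not called. The arginine/lysine transporter gene cat1 was at 71.8 and 68.6 against 66.4 and 53.6 FPKM, and the proline transporter gene put4 was at 6.39 and 5.79 against 4.61 and 3.37 FPKM. In the sulfate transporter gene sul2, at 3.57 and 4.06 against 9.27 and 3.18 FPKM, the groups overlapped. They overlapped too in hry1, for a protein with a cation-binding HHE domain, at 122.4 and 176.9 against 329.6 and 48.8 FPKM. The melibiase gene mel1, for an enzyme that splits the sugar melibiose, was at 13.0 and 15.8 against 40.3 and 18.4 FPKM (adjusted p = 0.163). The aldehyde dehydrogenase gene atd2, the transporter gene SPAC922.05c and the reductase gene SPAC922.06 differed by 0.28 to 0.51 (log2) and were not called. The most abundant gene of both ends was the uncharacterized SPAC922.04, at 1922.6 and 1852.7 against 1971.9 and 2502.9 FPKM (adjusted p = 0.39). The last gene outside the limit, SPAC922.03, was at 60.5 and 55.8 against 40.6 and 54.9 FPKM.

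Roles were assigned by keywords of the annotated product. All 4 genes of the transmembrane helix (ftm) family rose, as did the 3 tested of 4 cell surface genes. Of these, ftm2, ftm3 and the cell surface gene pfl6 passed the filter only through the labelled deletion libraries and had to be higher. The shares over all tested genes were 11.9% higher and 4.37% lower, and the roles hold few genes and were not compared by a test. Of 21 enzyme genes 16 were tested, with 6 higher and 4 lower. Of 10 transport genes 9 were tested and 2 were higher, fex1 and SPAC750.02c. Of 19 other or uncharacterized genes 17 were tested, with 9 higher and 2 lower. Among 5 pseudogenes 1 of 2 tested was higher, and of the helicase genes SPAC212.06c was higher and tlh1 was not tested. The ftm genes share sequence with each other, so they are not separate measurements. The same holds for the cell surface genes SPAC212.12 and SPAC212.08c, since 69.2% of the stretches of SPAC212.12 occur in SPAC212.08c.

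Most genes with shared sequence lay within 50 kb of an end, and no test was made between genes with and without it. A stretch of 100 nt found elsewhere in the genome was taken as shared, and 31 genes had at least 20% of such stretches. Of these 24 were tested, with 18 higher and 1 lower. Of the 34 genes under 20% 28 were tested, with 8 higher and 5 lower and a median difference of 0.22. Within 50 kb of an end, 22 tested genes had at least 20% shared sequence, of which 17 were higher (77.3%) and none lower, with a median of 2.47. There 7 genes were under 20%, of which 5 were tested and 4 were higher (SPAC212.07c, SPAC186.04c, gdt1 and SPAC186.06) and 1 lower (SPAC186.02c), with a median of 4.20. The filter fixed the direction of ftm2, SPAC977.06, pfl6 and ftm3 in the first of these sets and of SPAC186.02c in the second. At 50 to 100 kb 23 genes under 20% were tested, with 4 higher and 4 lower. Of these, SPAPJ695.02 and SPAPJ695.01c had to be higher. How reads with several matches were treated is not given in the sources used here. For the 18 rises and 1 fall among genes with shared sequence, this end and another therefore cannot be told apart.

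In wild type these genes were expressed at low levels. The median over the 65 genes of the wild-type mean was 4.87 FPKM, against 35.9 FPKM over 5159 genes of the same identifier style on the 3 chromosomes. In the labelled deletion libraries the medians were 13.9 and 41.9 FPKM. Within 50 kb of an end the median was 2.01 FPKM in wild type and 12.3 FPKM in the labelled deletion libraries.

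Genes of the other chromosome ends were counted by the same limit of 100 kb, with no test between sets. On chromosome II 49 of 66 such genes were tested, with 16 higher and 10 lower and a median difference of 0.58. On chromosome III, whose ends carry ribosomal DNA, 63 of 64 were tested, with 11 higher and 3 lower and a median of 0.14. Of 2232 tested genes of chromosome I farther than 100 kb from both ends, 284 were higher and 74 lower, with a median of 0.13. The subtelomeres of chromosomes I and II share sequence, so their counts are not independent.

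Of 38 listed silencing and telomere genes, all tested, 2 were called higher and none lower, with a median difference of 0.09 against 0.13 for all tested genes. Over all tested genes 11.9% were called higher and 4.37% lower. The called genes encode histone deacetylases. For sir2 the values were 28.3 and 25.8 against 18.9 and 16.5 FPKM (0.59 ± 0.14, adjusted p = 0.0482), and for clr6 they were 80.1 and 74.7 against 53.4 and 51.4 FPKM (0.55 ± 0.10, adjusted p = 0.0273). Quantile normalization ended both calls, as did leaving out labelled deletion replicate 1 or 2, and with wild-type replicate 1 or 2 left out 10 or 7 genes of the list were higher, when 2115 or 1593 of all 6315 genes were. The methyltransferase gene clr4 was at 3.84 and 3.29 against 5.56 and 5.2 FPKM (adjusted p = 0.165), and swi6 was at 59.5 and 51.4 against 44.1 and 43.7 FPKM (adjusted p = 0.116). The gene of the telomere-binding protein Taz1 was at 28.9 and 26.6 against 30.4 and 26.8 FPKM. Of 20 stress and starvation marker genes, 1 was higher and 3 were lower, and over all tested genes 16.3% were called in either direction. The phosphatase gene pyp2 rose from 57.3 and 31.0 to 129.0 and 135.7 FPKM (1.63 ± 0.29, adjusted p = 0.0283). The small heat shock protein gene hsp16 fell from 10167.0 and 10250.5 to 4553.0 and 4879.2 FPKM (-1.11 ± 0.22, adjusted p = 0.0362). The meiosis gene mei2 was lower by a log2 difference of -0.92 and the mating regulator gene ste11 by -1.16. Without labelled deletion replicate 1 or 2, no gene of this list was called.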

How the data were processed

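Transcript levels come from 4 RNA-seq libraries made from total RNA. The files the authors deposited hold, per the file headers, Cufflinks values of 1 annotated transcript per line in FPKM with a lower and upper bound. The build was ASM294v2 and the tools included Cufflinks, Cuffdiff, HISAT2 and SAMtools, per the submitters' processing notes. Versions, strand setting and treatment of reads with several matches were not stated there. FPKM are not counts, so no count model was used. The other measurements in the deposited files, the coverage and the isoform fraction of each transcript, were not used.

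FPKM was summed per gene. Only genes averaging 1 FPKM or more, with a transcript of at least 200 nt, entered the limma 3.58.1 fit (R 4.3.3) of log2(FPKM + 1). It used an intensity trend, n = 2 per group, and the Benjamini-Hochberg method over the 6315 genes. This fit gave all adjusted p-values, and differences on this scale understate the change of low genes. On simulated libraries of the 6315 genes, the model recovered 14% of 50 genes changed 1.5-fold, 64% at 2-fold and 100% at 4-fold and 8-fold, again of 50 each. The changed genes were drawn from those of at least 5 FPKM in wild type, and all genes of a group had the same spread. Recovery of lower or more variable genes, as many of the 65 are, was not estimated. Fragments were estimated from the half-width of the bounds, taken as 2 SD of a count, and depth from genes of at least 3000 nt whose estimate was whole within 0.001. They cover counting error only.

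The RefSeq annotation and sequence are those of ASM294v3. Chromosome I ends at base 5579133 in both, 99.3% of 5327 introns of the files had the usual ends in its sequence, and all 65 genes matched by locus tag with the same 3′ end. Both start and end were identical in 21 of the 65. Where gene starts differ, the printed and searched windows use the RefSeq start. By rule, full values were given for called genes averaging 5 FPKM or more and changed at least 2-fold (up to 15 rises and 15 falls, largest first), the 2 genes nearest each end and the 3 most abundant at each end. Others were named after their values were seen. The members and lists were chosen with earlier results of these data known. Alternatives were other pseudocounts (0.1 and 5), filters, a prior without trend, rescaling, quantile normalization, a replicate block, leaving out each library, and narrower sets of genes.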

Additional observations from a re-analysis of the deposited data

How the results depend on the processing

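No called gene of the 32 changed direction under any setting. In each of them the groups did not overlap, so leaving out a library or changing the pseudocount, filter or prior could not reverse a direction. Pseudocounts of 0.1 and 5, no filter, a minimum mean of 5 FPKM, a prior without trend, both normalizations and the replicate block each kept 28 to 31 of the calls, except that genes below 5 FPKM had no value under that minimum. The median difference of 0.81 was 0.98 with pseudocount 0.1, 0.55 with 5, 0.64 without a filter, 0.65 with quantile normalization, 1.38 for genes under 20% overlapped, 0.22 for genes under 20% shared and 2.51 within 50 kb; with a library left out it ran from 0.67 to 1.17.

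The count of higher genes (26) was 8 for genes under 20% shared, with 5 of 16 at the left end and 3 of 10 at the right. With a library left out it ran from 14 to 34, at the left end from 8 to 19, at the right from 6 to 15, within 50 kb from 11 to 23 and at 50 to 100 kb from 3 to 11. The count of lower genes (6) was 3 with a prior without trend and 1 within 50 kb, where that gene was lost with pseudocount 5 and without a filter (0 each). At 50 to 100 kb the prior without trend gave 2 lower. At the left end (2) it gave 0, and the unfiltered fit, the replicate block and genes under 20% shared gave 1, with 0 within 50 kb; at the right end (4) 1 was within 50 kb. With a library left out the lower genes ran from 1 to 13, at the left end from 0 to 6, at the right from 0 to 7, within 50 kb from 0 to 1 and at 50 to 100 kb from 1 to 12.

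Over all tested genes the higher calls (753) were 428 after median-ratio rescaling and 410 with quantile normalization, and the lower calls (276) were 176 without a filter. With a library left out they ran from 73 to 2115 and from 40 to 880. The silencing list gave 1 higher with a prior without trend, after rescaling and with the replicate block, 0 with quantile normalization, and 0 to 10 higher and 0 to 4 lower with a library left out. The stress list gave 2 higher with pseudocount 5 and at a mean of 5 FPKM, 0 without a filter, and 0 to 7 higher and 0 to 8 lower with a library left out. A fit with a library left out takes its spread mainly from the intact pair, and the lone library is assumed to vary alike.

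Same-numbered libraries share only a number, and their deviations were not correlated across genes (r = -0.012). With the replicate block 23 genes were higher and 5 lower, and the calls lost were those of SPAC212.07c, pfl6, fex1 and SPAC977.12. Depth limits genes below 1 FPKM, of which 12 were not tested for that reason and 1 for its length.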
